A study of Mus musculus with 3 samples.

Results

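Nuclei of the embryonic mouse heart that carried endothelial transcripts together with Ebf3, Tbx5, Pde2a and Corin transcripts are described here across 3 genotypes. They were chosen by measured values. A nucleus with at least 500 detected genes counted as endothelial-type where at least 4 of 11 endothelial genes (Pecam1, Cdh5, Kdr, Tek, Tie1, Emcn, Flt1, Egfl7, Ptprb, Erg and Eng) had a unique molecular identifier (UMI, one counted RNA molecule). It was a member where at least 2 of the 4 genes Ebf3, Tbx5, Pde2a and Corin had a UMI and where this number was above that of each of 7 other sets of 4 genes. The rule found 593 members among 7645 endothelial-type nuclei and 38893 barcodes.

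Whole hearts of embryos at embryonic day 9.5 were microdissected and flash-frozen, and single-nucleus RNA libraries were made on the 10x droplet platform from nuclei sorted for quality. The groups were Ncx1+/+ (wild type), Ncx1+/- (heterozygous) and Ncx1-/- (homozygous mutant). Ncx1, listed as Slc8a1, encodes the sodium-calcium exchanger of the cardiomyocyte membrane, and embryos without it have no effective heartbeat and so no circulation. The genotype labels name no Cre driver and no cell type, and the cardiomyocytes of each heart carry the same genotype as its endocardium. Each group was 1 library made from 5 pooled hearts, so no test between genotypes was possible and no difference below has a replicate check. The study's title names endocardial primary cilia, blood flow and the conversion of endocardium to mesenchyme in the cushions (EndoMT).

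The endocardium is the endothelial lining of the heart. It sends signals such as neuregulin to the myocardium, and in the atrioventricular canal and outflow tract part of it turns into cushion mesenchyme. Tbx5 is a T-box transcription factor of atrial and left ventricular myocardium and of the atrial septum, and it acts in endocardium as well as in muscle. Ebf3 is a transcription factor of the early B-cell factor family. Corin is a membrane protease that activates pro-atrial natriuretic peptide, and Pde2a is a phosphodiesterase that cyclic GMP stimulates to break down cyclic AMP.

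The libraries held 13805 barcodes and 59898298 UMIs (Ncx1+/+), 12563 barcodes and 49022310 UMIs (Ncx1+/-) and 12525 barcodes and 52985283 UMIs (Ncx1-/-). Nuclei with at least 500 genes numbered 13562, 12305 and 12325, in that genotype order, which all lists of 3 values below keep. Between 40 and 57 barcodes were shared by any pair of libraries, and 0 members shared one. The members numbered 199, 156 and 238 and held 1361527, 952679 and 1669076 UMIs. Their median depth was 5998, 5416.5 and 5930.5 UMIs per nucleus, against 5268, 4522 and 4248.5 in the other endothelial-type nuclei. Malat1, a nuclear RNA whose share moves with RNA quality, took 3.30%, 3.33% and 5.99% of the members' UMIs and 2.76%, 2.92% and 5.44% in the other endothelial-type nuclei. Its part in the differences between libraries was not tested.

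Before any result, the members were examined for cardiomyocyte RNA. In 55, 44 and 87 members (27.6%, 28.2% and 36.6%) the share of UMIs from 12 cardiomyocyte genes (such as Ttn, Tnnt2, Myh6 and Ryr2) reached at least 50% of the median of cardiomyocyte nuclei in the same library. Among the other endothelial-type nuclei this held for 10.9%, 12.6% and 21.1%. The members spread over the whole range: 113, 82 and 116 lay under 20% of the cardiomyocyte level, 29, 16 and 35 lay between 40% and 60%, and 12, 18 and 30 lay at 80% or above. Those past 50% were also larger, with a median of 9397, 6906 and 8571 UMIs against 5235.5, 4292 and 4653 in the rest. Of these high-share members 94.5%, 72.7% and 65.5% were among the top 8% of doublet scores of their library, against 15.3%, 10.7% and 13.2% of the low-share members. Whether they were 2 nuclei in one droplet was not tested, and the results below are given for all members and for the low-share members alone.

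**Figure D1:**
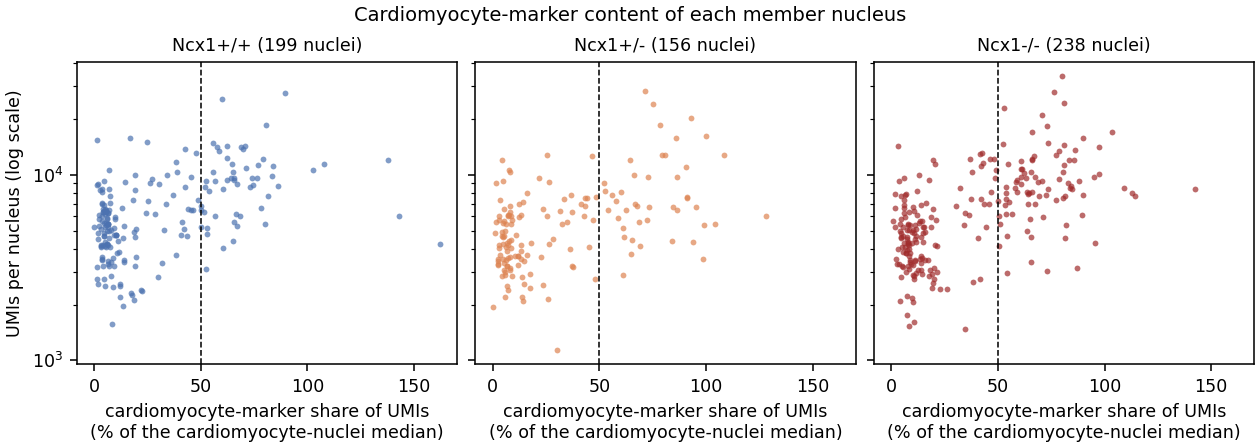
Each point is 1 member nucleus: the x axis is its cardiomyocyte-marker share of UMIs as a percent of the median of cardiomyocyte nuclei in its library, and the y axis its UMIs on a log scale, with 1 panel per genotype. The dashed line marks 50%; the 55, 44 and 87 nuclei to its right had higher median UMIs than those to its left.

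The cardiomyocyte content went with Tbx5. Of 423 members with a Tbx5 UMI, 177 (41.8%, exact 95% interval 37.1 to 46.7) had a high cardiomyocyte share, and of the 170 without one only 9 did (5.29%, 2.45 to 9.81). The pair Tbx5 and Corin, the most frequent way of meeting the rule with 124 nuclei, had 53.2% (44.1 to 62.2) high-share nuclei. The pair Ebf3 and Pde2a, met by 20, 12 and 42 nuclei, had 1.35% (0.0342 to 7.30). All 4 genes were found in 22 nuclei, 5, 4 and 13 by library. Intervals of shares here and below are exact binomial (Clopper-Pearson) intervals and, like the Poisson intervals of levels, cover counting error only.

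Most members met the rule narrowly. Exactly 2 set genes had a UMI in 139, 113 and 162 members, 3 in 55, 39 and 63, and all 4 in 5, 4 and 13. A UMI in Ebf3 was found in 124, 84 and 147 members, in Tbx5 in 130, 114 and 179, in Pde2a in 68, 68 and 129, and in Corin in 141, 93 and 110. Just outside the rule lay 26, 29 and 31 nuclei with 1 set gene that still led the other sets, with a median of 3161, 3082 and 2697 UMIs against 5420, 4698 and 5367 for members with exactly 2 set genes. A further 233, 174 and 208 endothelial-type nuclei had 2 or more set genes but as many or more genes of another set. Over all endothelial-type nuclei the set genes did not occur together to a like degree: Tbx5 had a UMI in 20.1%, 20.7% and 31.6% of nuclei with Ebf3 and in 19.3%, 19.7% and 27.2% of those without. Corin had a UMI in 33.3%, 26.8% and 25.2% of nuclei with Tbx5 and in 16.0%, 14.3% and 6.6% of those without.

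The levels of the rule's genes follow as a description, since they chose the members. Levels are UMIs of a gene per 1000000 UMIs summed over a class of nuclei (CPM), and each is 1 value per library. Ebf3 (mm10 chr7:137193673-137314445, minus strand, where the coordinates are the whole gene in GENCODE M21, introns included) stood at 197 (exact Poisson 95% interval 174 to 222), 172 (147 to 201) and 184 (164 to 206) CPM in the members. It stood at 56.6, 57.1 and 59.1 CPM in the other endothelial-type nuclei and at 2.11, 2.33 and 3.23 CPM in cardiomyocyte nuclei. The 3 libraries overlapped in Ebf3 within the members, and cardiomyocyte nuclei had almost none. In low-share members its level was higher, at 270, 225 and 295 CPM.

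Tbx5 (chr5:119832668-119885219, plus strand) behaved otherwise. Its level was 167 (146 to 190), 210 (182 to 241) and 217 (196 to 241) CPM in the members, 47.1, 55.9 and 72.7 CPM in the other endothelial-type nuclei, and 224, 226 and 218 CPM in cardiomyocyte nuclei. High-share members held 213, 231 and 230 CPM and low-share members 136, 195 and 204 CPM. In low-share members Tbx5 was above the other endothelial-type nuclei in all 3 libraries, which the rule itself favours. It was below cardiomyocyte nuclei in Ncx1+/+ (interval 112 to 164 CPM). In Ncx1+/- (160 to 235) and Ncx1-/- (174 to 238) its interval overlapped that of cardiomyocyte nuclei.

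Pde2a (chr7:101410886-101512819, plus strand) stood at 61.7 (49.2 to 76.4), 81.9 (64.7 to 102) and 100.1 (85.5 to 116) CPM in the members, and at 0.90, 0.884 and 2.22 CPM in cardiomyocyte nuclei. Its lowest value in the members was that of Ncx1+/+, and in the other endothelial-type nuclei it likewise stood at 13.7, 16.8 and 42.7 CPM. Corin (chr5:72300025-72504473, minus strand) had the opposite order, with 239 (214 to 266), 196 (169 to 227) and 117 (102 to 135) CPM in the members and 58.6, 55.9 and 22.5 CPM in the other endothelial-type nuclei. Cardiomyocyte nuclei held 54.0, 52.4 and 48.8 CPM of Corin. The gene that brought a nucleus into the class therefore differed between libraries, with 70.9%, 59.6% and 46.2% of members carrying a Corin UMI and 34.2%, 43.6% and 54.2% a Pde2a UMI.

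**Figure D2:**
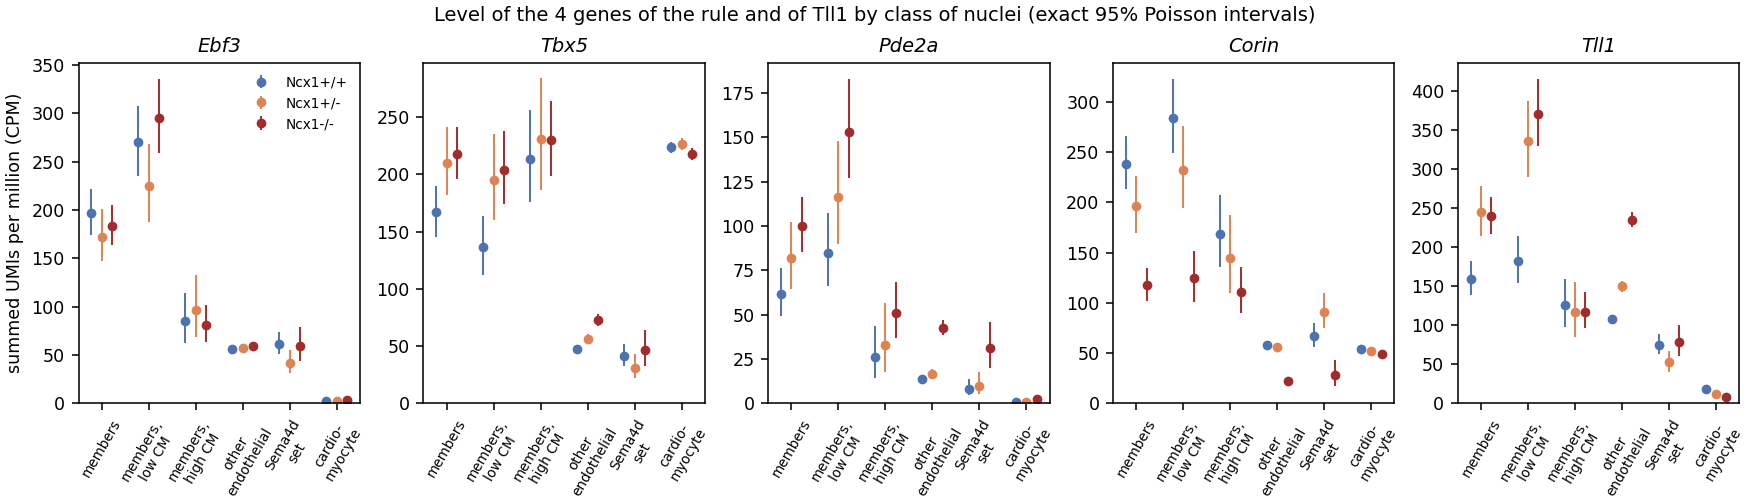
CPM of Ebf3, Tbx5, Pde2a, Corin and Tll1 (y axes, linear from 0) in members, in members of low and of high cardiomyocyte-marker share, and in other classes of nuclei (x axis), with 1 colour per genotype and exact 95% Poisson intervals. Ebf3 and Pde2a were near 0 in cardiomyocyte nuclei, and Tbx5 there was at 224, 226 and 218 CPM.

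Tll1 (chr8:64014931-64206271, minus strand), a tolloid-family protease that cleaves the BMP antagonist chordin and is needed for septation of the heart, was the only proposed marker of these nuclei outside the rule. It stood at 160 (140 to 183), 246 (215 to 279) and 240 (217 to 264) CPM in the members. In nuclei led by Sema4d, Hs3st4, Kcnq1 and Col26a1 (the Sema4d set) it stood at 75, 52.8 and 78.7 CPM, a ratio of 2.14 (1.72 to 2.67), 4.65 (3.51 to 6.25) and 3.04 (2.32 to 4.05). Against all other endothelial-type nuclei, at 108, 150 and 235 CPM, the ratio was 1.49 (1.29 to 1.71), 1.64 (1.42 to 1.88) and 1.02 (0.914 to 1.13), so the Ncx1-/- members did not stand above them. With at least 3 set genes required, the log2 ratio of Tll1 against the other endothelial-type nuclei was -0.25, -1.09 and -0.87. In nuclei led by Cyp26a1, Pcdh17, Pak7 and St8sia4, Tll1 was several times higher than in the members, at 1257, 1283 and 1249.8 CPM.

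The share of nuclei with a Tll1 UMI was 26.6%, 26.3% and 27.7% in the members and 14.9%, 17.1% and 24.7% in the other endothelial-type nuclei. In cardiomyocyte nuclei it was 4.55%, 3.23% and 2.53%. These nuclei gauge free RNA only in part, since they were chosen to have at most 1 endothelial gene. With each nucleus thinned to 2000 UMIs and shallower nuclei left out, the Tll1 shares became 17.8%, 19.5% and 16.7% in the members. They became 9.4%, 12% and 18.6% in the other endothelial-type nuclei and 2.9%, 1.9% and 1.6% in cardiomyocyte nuclei. Nfatc1, a transcription factor that marks endocardium, had a UMI in 78.9%, 67.9% and 68.9% of members and in 3.41%, 2.95% and 3.30% of cardiomyocyte nuclei, whose median depth was 3857, 3512 and 3696.5 UMIs. At 2000 UMIs per nucleus these shares were 46.7%, 44.2% and 37.6% and 1.3%, 1.2% and 1.5%. Its level was 354, 314 and 241 CPM in the members and 452, 405 and 281 CPM in the other endothelial-type nuclei. Npr3, the natriuretic peptide clearance receptor and another endocardial gene, was found in 80.9%, 83.3% and 76.5% of members against 9.12%, 8.61% and 8.38% of cardiomyocyte nuclei, and at 2000 UMIs in 57.9%, 64.9% and 51.7% against 4.0%, 5.5% and 4.2%. The 10 endocardial markers together summed to 4211, 4050 and 2536 CPM in the members and to 4612, 4268 and 2717 CPM in the other endothelial-type nuclei. Among low-share nuclei alone the sums were 5068, 4892 and 3223 CPM in the members and 4991, 4711 and 3133 CPM in the other endothelial-type nuclei. The members thus carried endocardial markers. Their summed level was below that of the other endothelial-type nuclei only with high-share nuclei included.

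The atrial part of their proposed name could not be checked, since the libraries were made from whole hearts and the tables carry no position. Markers of atrial cardiomyocytes summed to 1002.9, 1078.2 and 1444.5 CPM in the low-share members and those of ventricular cardiomyocytes to 962.8, 847.5 and 987.5 CPM. In the other low-share endothelial-type nuclei these sums were 872, 970 and 1351 CPM and 823, 808 and 976 CPM. Sln, an atrial muscle gene, was at 0 in all members and in the other endothelial-type nuclei alike. Macrophage and megakaryocyte markers summed to 5.88, 4.20 and 12.6 CPM. The nuclei are therefore called by their rule genes and not by a chamber.

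Slc8a1 (chr17:81373105-81738377, minus strand), the mutated gene, stood at 5722 (5595 to 5850), 2522 (2423 to 2625) and 482 (450 to 517) CPM in the members. The 3 libraries did not overlap, in the order of their labels. In the low-share members it stood at 2242, 479 and 132 CPM. Cardiomyocyte nuclei held 16738, 8846 and 1278 CPM, and the other endothelial-type nuclei of low share 1088, 511 and 110 CPM.

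The members made up 6.85% (5.96 to 7.83), 6.25% (5.33 to 7.27) and 10.6% (9.36 to 11.95) of endothelial-type nuclei. The Ncx1-/- share was above both others, whose intervals overlapped. Without high-share members it was 5.64% (4.77 to 6.60), 5.19% (4.29 to 6.21) and 8.71% (7.43 to 10.1), and with an Ebf3 UMI required 4.27% (3.56 to 5.07), 3.36% (2.69 to 4.15) and 6.55% (5.56 to 7.65). With every nucleus thinned to 2000 UMIs it was 2.66% (2.04 to 3.41), 3.54% (2.77 to 4.45) and 4.15% (3.26 to 5.21), and the interval of Ncx1-/- then overlapped those of both other libraries. Because a member must lead 7 other sets, the share also moves with them: the Sema4d set held 283, 217 and 135 nuclei. The number of endothelial-type nuclei with at least 2 set genes, whatever the other sets held, was 432 (14.9%, 13.6 to 16.2), 330 (13.2%, 11.9 to 14.6) and 446 (19.9%, 18.2 to 21.6). The rule's genes also differed in the other endothelial-type nuclei. There a Pde2a UMI was found in 6.58%, 6.79% and 17.0% of nuclei and a Tbx5 UMI in 16.1%, 16.3% and 22.6%. Ebf3 was found in 16.7%, 15.4% and 16.3% and Corin in 15.6%, 14.0% and 7.78%. Their part in the share was not tested. Fewer cells of another type, more of these and other levels of the rule's genes cannot be told apart from a share.

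**Figure D3:**
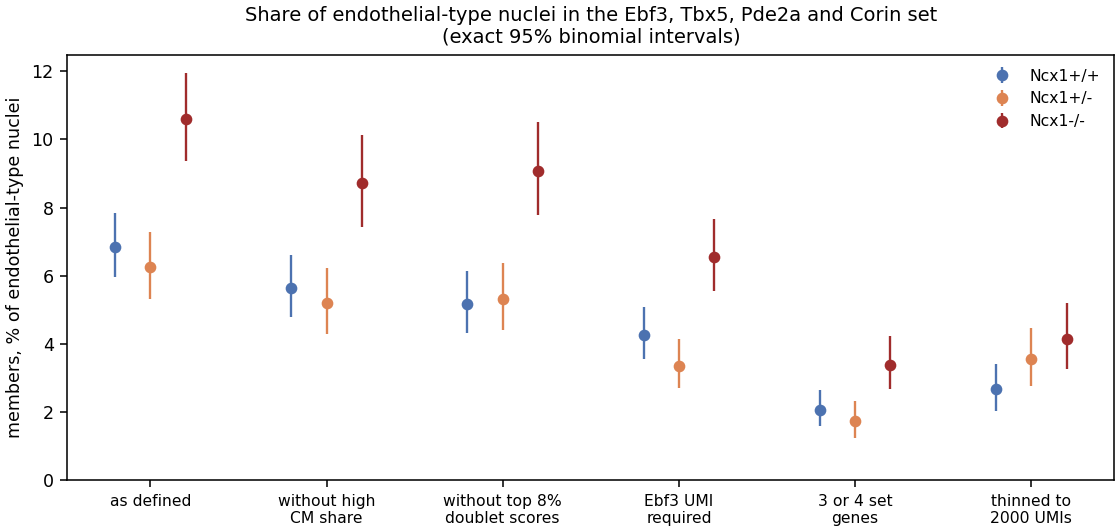
Members as a percent of endothelial-type nuclei (y axis, from 0) under the rule and under its alternatives (x axis), with 1 colour per genotype and exact 95% binomial intervals. The Ncx1-/- value of 10.6% lies above 6.85% and 6.25% under the rule, and after thinning to 2000 UMIs its interval, around 4.15%, overlaps both others, around 2.66% and 3.54%.

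A comparison with the Sema4d set, another large endothelial set, shows what else the members carried. A gene was counted as higher where the ratio was at least 1.5 in every library with each interval excluding 1, over genes with at least 100 counts, as a description with no test, since both classes were chosen by their transcripts. Of 8502 genes, 202 were higher in the members (2.38%) and 104 lower (1.22%). Of the 202, 177 (87.6%) were higher still in cardiomyocyte nuclei. With low-share nuclei alone on both sides, 67 of 7177 genes were higher (0.934%) and 47 lower (0.655%), 28 of the 67 were higher still in cardiomyocyte nuclei, and 43 higher and 45 lower genes were shared with the comparison of all nuclei. Against all other endothelial-type nuclei 52 of 12261 genes (0.424%) were higher in the members, and all 52 were higher still in cardiomyocyte nuclei.

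Several genes of the low-share comparison were lower in cardiomyocyte nuclei than in the members. Bmper (chr9:23223076-23485200, plus strand), a secreted regulator of BMP signalling, stood at 637, 654 and 323 CPM in low-share members against 101, 156 and 91.8 CPM in low-share Sema4d-set nuclei, a ratio of 6.31 (5.27 to 7.61), 4.18 (3.45 to 5.09) and 3.51 (2.63 to 4.77). It stood at 129, 117 and 99.0 CPM in cardiomyocyte nuclei. Msx1, a homeobox factor of the atrioventricular endocardium and cushions, stood at 88.7, 85.8 and 69.7 CPM in low-share members against 19.7, 21.6 and 22.5 CPM in low-share Sema4d-set nuclei, and at 3.12, 2.62 and 2.86 CPM in cardiomyocyte nuclei. Both genes were higher in the members than in the Sema4d set in every library. Against all other endothelial-type nuclei the levels lay closer. Msx1 stood at 64.6, 64.0 and 43.1 CPM in all members and at 66.7, 61.9 and 37.9 CPM in those nuclei. Bmper stood at 507, 466 and 234 CPM in all members and at 461, 415 and 181 CPM in those nuclei.

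Bmx, a non-receptor tyrosine kinase of arterial endothelium and endocardium, stood at 165, 139 and 107 CPM in low-share members against 38.0, 59.7 and 43.5 CPM in low-share Sema4d-set nuclei and 0.844, 0.688 and 0.375 CPM in cardiomyocyte nuclei. It was also 1.85, 1.60 and 1.57 times as high as in the other low-share endothelial-type nuclei. Glis3, a zinc finger factor of the Gli-similar family, stood at 182, 333 and 149 CPM in low-share members, against 53.7, 124 and 30.6 CPM in low-share Sema4d-set nuclei and 14.9, 13.6 and 9.03 CPM in cardiomyocyte nuclei. Both were among the 8 of 11525 genes (0.0694%) that were higher in low-share members than in all other low-share endothelial-type nuclei in every library. The others were Kcnh7, Pir, Tenm4, Thsd4, Mlip and Tenm2. Of the 8, 5 (62.5%), not Bmx or Glis3, were higher still in cardiomyocyte nuclei.

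For other genes of this comparison cardiomyocyte nuclei also held more than the Sema4d set did. Unc5c, a netrin receptor, stood at 309, 193 and 233 CPM in low-share members against 79.3, 44.3 and 45.1 CPM in low-share Sema4d-set nuclei, a ratio of 3.89 (3.12 to 4.88), 4.36 (3.04 to 6.37) and 5.16 (3.46 to 7.98), with 245, 232 and 165 CPM in cardiomyocyte nuclei. Against all other low-share endothelial-type nuclei its ratio was 0.77, 0.65 and 1.74. Lef1, a transcription factor of the Wnt pathway, stood at 221, 188 and 215 CPM against 76.7, 60.7 and 69.2 CPM, with 366, 327 and 211 CPM in cardiomyocyte nuclei. Tbx20, a T-box factor of endocardium and myocardium, stood at 1504, 1350.0 and 922 CPM against 743, 678 and 585 CPM, with 979.9, 915 and 746 CPM in cardiomyocyte nuclei.

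Genes lower in low-share members than in low-share Sema4d-set nuclei included Nav3, a neuron navigator that binds microtubules, at 1321, 1627 and 929 CPM against 4926, 4642 and 2242 CPM. Nhs, the Nance-Horan syndrome gene, stood at 466, 411 and 290 CPM against 1201, 980 and 705 CPM. Entpd1, the ectonucleotidase CD39, stood at 151, 148 and 82.2 CPM against 443, 353 and 188 CPM, and Lrig1, a negative regulator of ErbB receptors, at 124, 132 and 51.1 CPM against 339, 338 and 114 CPM. Both classes were lowest in Ncx1-/- for these 4 genes. Nfatc1, at ratios of 1.23, 1.04 and 1.01, and Npr3, at 0.59, 0.82 and 0.82, were not counted in either direction.

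**Figure D4:**
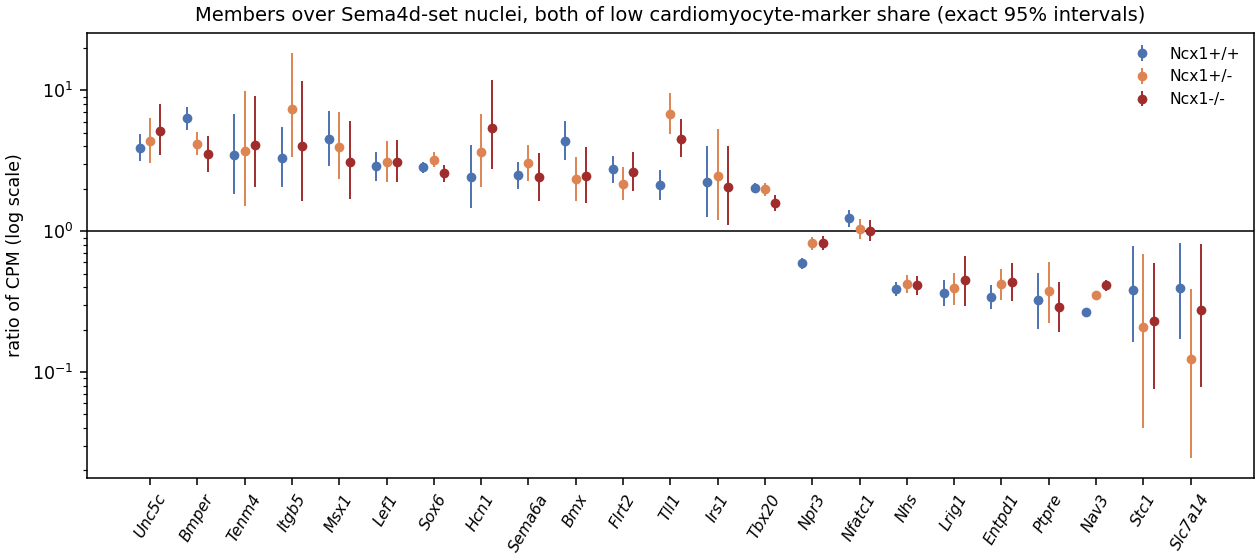
Ratio of CPM in low-share members over low-share Sema4d-set nuclei (y axis, log scale), with 1 colour per genotype and exact 95% intervals. The x axis holds a selection of the genes with the highest and lowest ratios, not all of them, and Tll1, Tbx20, Npr3 and Nfatc1. Bmper lies at 6.31, 4.18 and 3.51 and Nav3 at 0.27, 0.35 and 0.41.

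Between genotypes, a gene was counted as standing apart in 1 library where its CPM in the members was past a 1.5-fold difference, in the same direction, from each of the other libraries, and where both intervals excluded 1. Of 8727 genes with at least 50 counts, the 43 genes of the rule left out, 210 stood higher (2.41%) and 153 lower (1.75%) in Ncx1-/-. Ncx1+/+ had 61 higher (0.699%) and 116 lower (1.33%), and Ncx1+/- 25 higher (0.286%) and 37 lower (0.424%). In low-share members 171 of 6694 genes stood higher (2.55%) and 124 lower (1.85%) in Ncx1-/-. With totals that leave out mitochondrial, ribosomal, haemoglobin and Malat1 counts, the Ncx1-/- split was 283 higher and 124 lower, 69.5% higher against 57.9% above. Of the 210 higher genes 135 (64.3%) also stood higher in Ncx1-/- in the other endothelial-type nuclei, and 0 stood lower. Of the 153 lower genes 88 (57.5%) also stood lower there, and 0 higher. In those nuclei, which hold more counts, 9.19% of 13356 genes stood higher and 3.5% lower. Among the genes measured in the members 549 stood higher there and 240 lower, of which the shared genes were 24.6% and 36.7%.

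The members of Ncx1-/- held more RNA of the low-oxygen response and of glycolysis. Of 36 measured genes 22 stood higher in Ncx1-/- and 0 lower, against 2.41% and 1.75% of all genes. The median log2 ratio was 1.14 against Ncx1+/+ and 0.72 against Ncx1+/-, beside 0.01 and -0.00 over all genes. In low-share members 19 of 31 stood higher, with medians of 1.49 and 0.83. The genes were ordered Ncx1+/+, Ncx1+/-, Ncx1-/- from low to high in 31 of 36. The list of 40 genes summed to 3301 (3205 to 3399), 4441 (4308 to 4577) and 7253 (7124 to 7383) CPM in the members, 2702, 3407 and 7049 CPM in the other endothelial-type nuclei and 5648, 6286 and 9025 CPM in cardiomyocyte nuclei. Of the 22 genes 21 also stood higher in the other endothelial-type nuclei, so the difference is not particular to the members.

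The start sites of 3 of these genes are shown because many genes of this list, though not all, hold a short motif. For each of the 3 a start site that holds it was chosen. The HIF transcription factors, which are stabilised when oxygen is low, bind the core ACGTG, which reads as CACGT on the other strand. The 160 bases before the start are given 5′ to 3′ on the gene's strand, from RefSeq on GRCm38.p6, with the core in capitals: Bnip3 at chr7:138909507-138909666 (minus strand), Ldha at chr7:46845644-46845803 (plus strand) and Pgk1 at chrX:106186940-106187099 (plus strand).
Bnip3: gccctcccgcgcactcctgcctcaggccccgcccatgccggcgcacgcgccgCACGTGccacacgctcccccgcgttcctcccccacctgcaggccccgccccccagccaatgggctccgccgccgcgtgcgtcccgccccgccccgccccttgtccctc
Ldha: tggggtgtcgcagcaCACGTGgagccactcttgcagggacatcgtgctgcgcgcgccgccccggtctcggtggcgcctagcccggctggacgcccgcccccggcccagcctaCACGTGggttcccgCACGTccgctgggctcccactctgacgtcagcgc
Pgk1: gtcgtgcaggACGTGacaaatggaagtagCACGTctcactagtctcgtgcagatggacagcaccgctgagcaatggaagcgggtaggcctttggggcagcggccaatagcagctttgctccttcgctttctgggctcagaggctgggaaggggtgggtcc
Adjacent or overlapping cores read as 1 capital run, as in CACGTG. Of 31 measured hypoxia-list genes with an entry, 19 (61.3%) held the core within 250 bases before their start, as did 13 of 19 that stood higher (68.4%), 4998 of 27025 genes (18.5%) and 5444 of 32851 windows (16.6%). A match is a description of the letters and shows no binding. The share over the list is a trait of the genes chosen for it and no result about these nuclei.

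Bnip3, a mitophagy receptor and a classical target of HIF, stood at 20.6 (13.7 to 29.7), 55.6 (41.7 to 72.8) and 121 (105 to 139) CPM in the members. Ncx1-/- was 5.88 times higher than Ncx1+/+ (3.95 to 9.08) and 2.18 times higher than Ncx1+/- (1.60 to 3.0). Ldha, lactate dehydrogenase A, stood at 192 (169 to 216), 289 (255 to 325) and 477 (444 to 511) CPM. Pgk1, phosphoglycerate kinase, stood at 72 (58.4 to 87.7), 79.8 (62.9 to 99.9) and 156 (138 to 176) CPM, and its Ncx1+/+ and Ncx1+/- intervals overlapped. All 3 were highest in Ncx1-/-, among low-share members as well.

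Further genes of the list followed the same order. Egln3, a prolyl hydroxylase that HIF itself induces, stood at 7.34, 23.1 and 52.7 CPM, 7.18 times higher in Ncx1-/- than in Ncx1+/+ (3.72 to 15.5). Ankrd37, another HIF target, stood at 6.61, 12.6 and 37.7 CPM. Hk2, hexokinase 2, stood at 253, 309 and 667 CPM, and Slc2a3, a glucose transporter, at 44.8, 75.6 and 144 CPM. Pdk1, which diverts pyruvate from the mitochondria, stood at 85.9, 127 and 274 CPM, Plod2, a collagen lysyl hydroxylase, at 69.0, 93.4 and 225 CPM, and Vegfa at 67.6, 101 and 197 CPM. Hif1a, at 395, 435 and 403 CPM, and Epas1, at 32.3, 36.7 and 29.4 CPM, which encode the HIF alpha subunits, did not stand apart.

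**Figure D5:**
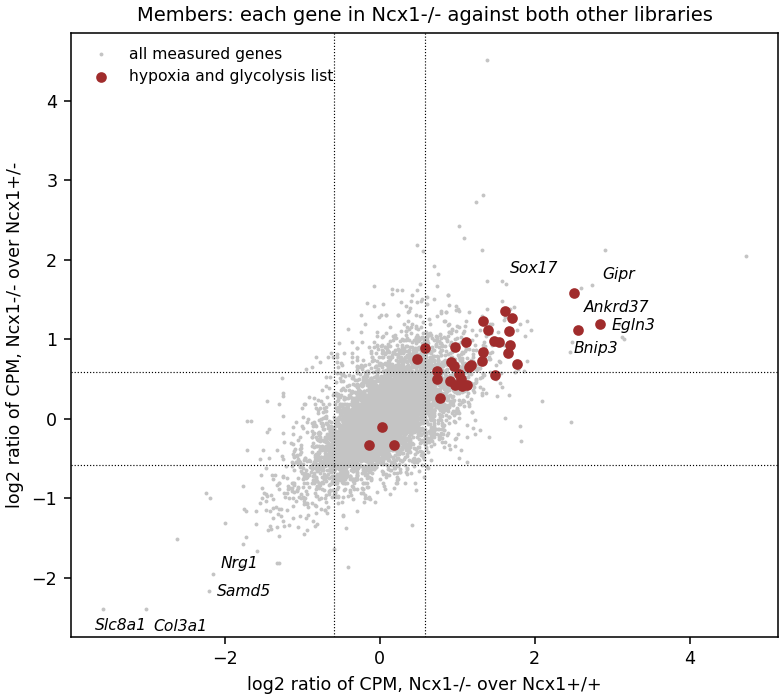
Each point is a gene in the members, with the log2 ratio of Ncx1-/- over Ncx1+/+ on the x axis and over Ncx1+/- on the y axis; the hypoxia and glycolysis list is coloured, and dotted lines mark 1.5-fold differences. Of its 36 measured genes 22 stood higher in Ncx1-/- and none lower.

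Genes lower in the Ncx1-/- members included a signal from endocardium to myocardium and fibrillar collagens. Nrg1 (chr8:31814551-32884029, minus strand), neuregulin, which endocardium sends to cardiomyocyte ErbB receptors for trabeculation, stood at 1598 (1532 to 1667), 1395 (1321 to 1472) and 361 (332 to 391) CPM. It was 4.43-fold lower in Ncx1-/- than in Ncx1+/+ (4.05 to 4.86) and 3.87-fold lower than in Ncx1+/- (3.51 to 4.27). In low-share members Nrg1 stood at 2077, 1675 and 543 CPM, and in cardiomyocyte nuclei at 41.5, 39.7 and 34.5 CPM. The other endothelial-type nuclei held 1960, 1680 and 556 CPM of Nrg1, so its difference is not particular to the members. Col3a1, a fibrillar collagen of cushion mesenchyme, stood at 97.0, 63.0 and 12 CPM, and Col5a2 at 272, 221 and 116 CPM. Col3a1 likewise stood at 128, 107 and 16.2 CPM in the other endothelial-type nuclei. Markers of other cell types also differed between libraries. Of 6 measured cushion mesenchyme markers Col3a1 stood lower and Prrx2 higher. That list, which holds Col3a1 itself, summed to 626, 385 and 338 CPM in the members (667, 440 and 415 CPM in low-share members). Its larger step lay between Ncx1+/+ and Ncx1+/-. All 4 measured erythroid markers (Hbb-y, Hba-x, Hbb-bh1 and Hba-a1) stood lower in Ncx1-/-, 3 of them in low-share members. The erythroid list summed to 355, 386 and 129 CPM in the members and to 378, 483 and 166 CPM in cardiomyocyte nuclei. The part of such other cell types in the differences was not tested.

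Bmper stood at 507, 466 and 234 CPM, 2.17-fold lower in Ncx1-/- than in Ncx1+/+ (1.91 to 2.46) and 1.99-fold lower than in Ncx1+/- (1.74 to 2.29). Bmp6, a BMP ligand, stood at 186, 181 and 103 CPM. In the other endothelial-type nuclei Bmper stood at 461, 415 and 181 CPM and Bmp6 at 141, 128 and 116 CPM. Slit2, a secreted ligand of Robo receptors, stood at 693, 854 and 333 CPM, and Hapln1, which links hyaluronan to proteoglycans in cardiac jelly, at 2146, 2142 and 1368 CPM. Edn1, endothelin 1, stood at 55.8, 78.7 and 34.8 CPM. Ahr, a ligand-activated transcription factor, stood at 52.1, 51.4 and 19.8 CPM, Lrig1 at 120, 105 and 35.3 CPM, Samd5 at 116, 112 and 25.2 CPM and Thsd7a at 255, 238 and 69.5 CPM. In each of these genes Ncx1-/- was the lowest library, and except for Edn1 the values of Ncx1+/+ and Ncx1+/- lay closer to each other than to it. Among low-share members all of them but Hapln1, at 2724, 2864 and 2091 CPM, stood lower in Ncx1-/- too.

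The counts by list that follow are to be read beside the 2.41% of all genes that stood higher and the 1.75% that stood lower in Ncx1-/-: in lists this short a count of 0 or 1 lies near those shares. By list, 2 of 22 measured BMP and tolloid genes stood lower in Ncx1-/- (Bmp6 and Bmper) and 0 higher, with a median log2 ratio to Ncx1+/+ of -0.17. Cushion matrix and basement membrane genes had 2 higher (Lama5 and Sparc) and 3 lower (Hapln1, Col3a1 and Col5a2) of 24, with a median of -0.31. EndoMT genes had 0 higher and 0 lower of 14, with a median of -0.30. Trabeculation genes had 2 lower (Nrg1 and Slit2) of 15, and flow-responsive genes 1 higher (Sox17) and 1 lower (Edn1) of 18. TGF-beta (11 measured), Notch (13), Wnt (16), hedgehog and septation (9), T-box (3) and early B-cell factor (3) genes had 0 in either direction. Ebf1, a relative of Ebf3, stood at 2238, 2482 and 1646 CPM. Klf2, a transcription factor induced by flow, stood at 91.1, 75.6 and 92.9 CPM.

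Other genes stood higher in Ncx1-/-. Sox17, a transcription factor of arterial endothelium and early endocardium, stood at 23.5 (16.1 to 33.2), 21 (12.8 to 32.4) and 70.1 (58.0 to 84.0) CPM, 2.98 times higher in Ncx1-/- than in Ncx1+/+ (2.0 to 4.56) and 3.34 times higher than in Ncx1+/- (2.07 to 5.67). It stood at 29.2, 28.6 and 94.6 CPM in low-share members and likewise at 25.2, 32.9 and 87.3 CPM in the other endothelial-type nuclei. Nr2f2, a nuclear receptor of veins and atria, stood at 117, 130 and 198 CPM, and Tmem100, an endothelial gene induced by BMP9 and BMP10, at 33.1, 52.5 and 88.7 CPM. Nr2f2 also stood higher among low-share members and Tmem100 did not. Calca and Kctd16 stood apart in all members and not in the low-share ones, where each had fewer than 50 counts over the libraries. Calca, which encodes calcitonin and CGRP, stood at 3.67, 6.30 and 27.6 CPM in all members but at 1.22, 3.58 and 3.74 CPM in the low-share ones, and Kctd16 at 1.47, 9.45 and 38.9 CPM but at 0, 8.94 and 6.23 CPM. Gipr, an incretin receptor, stood at 9.55, 19.9 and 64.1 CPM in all members and at 3.65, 7.15 and 26.2 CPM in the low-share ones, 6.71 and 7.17 times higher in Ncx1-/- than in Ncx1+/+. Its low-share values rest on 3, 4 and 21 counts, and cardiomyocyte nuclei held 44.6, 55.9 and 159 CPM.

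Beside the same shares over all genes, 2.41% higher and 1.75% lower, cardiac transcription factors had 2 of 15 higher in Ncx1-/- (Nkx2-5 and Nr2f2), and Nkx2-5, at 30.1, 29.4 and 49.1 CPM, did not stand apart in low-share members. Guidance genes had Ntn1 and Dcc higher and Plxna2 and Slit2 lower of 21, and in low-share members 0 higher and 5 lower (Sema6a, Plxna2, Slit2, Unc5b and Epha4), beside 2.55% higher and 1.85% lower of all genes there. Natriuretic peptide and cyclic nucleotide genes, which surround Corin and Pde2a in function, had 0 of 19 in either direction. Nppa, the substrate of corin, stood at 80.1, 96.6 and 118 CPM in the members and at 161, 198 and 218 CPM in cardiomyocyte nuclei. Cell cycle genes had 0 of 34 in either direction. RNA quality genes (Malat1, Neat1, mitochondrial, ribosomal and heat-shock genes) had 2 of 19 higher (Malat1 and Rps6) and 0 lower. Their median log2 ratio was 0.50 to Ncx1+/+ and 0.12 to Ncx1+/-. In low-share members these medians were 0.79 and 0.25, beside 0.01 and 0.01 over all genes there. The part of RNA quality in the differences between libraries was not tested. Of 6 sex-linked genes, Uty (233, 239 and 120 CPM) and Eif2s3y (126, 112 and 74.3 CPM) stood lower in Ncx1-/-. In low-share members both stood lower too, and Xist stood higher. Xist and Tsix stood higher in Ncx1-/- in the other endothelial-type nuclei. The sexes in the pools are not given in the sources used here, and their part in the differences was not tested.

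In Ncx1+/- members the named genes were of low level. The highest against the other libraries were Ikzf3, a lymphoid zinc finger factor, at 9.55, 26.2 and 7.19 CPM, Plekhh2 at 11.8, 24.1 and 7.79 CPM, Mrrf at 20.6, 40.9 and 19.8 CPM, Zfp385b at 21.3, 45.1 and 23.4 CPM and Gdap2 at 15.4, 29.4 and 11.4 CPM. The lowest were Ppp2r2b, a regulatory subunit of protein phosphatase 2A, at 18.4, 2.10 and 47.9 CPM, Bnc2 at 20.6, 6.30 and 28.8 CPM, Katnal2 at 17.6, 5.25 and 16.8 CPM, Snrnp35 at 15.4, 5.25 and 22.8 CPM and Rspo3, a secreted enhancer of Wnt signalling, at 145, 52.5 and 162 CPM. Plekhh2, Mrrf, Zfp385b, Gdap2, Katnal2, Snrnp35 and Rspo3 no longer stood apart without high-share members.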

How the data were processed

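The authors deposited UMI count matrices of genes by barcodes, 1 per library. Per the submitters' processing notes the reads were processed with Cell Ranger 6.1.0 on mm10, while the file headers name cellranger 9.0.0; the sources used here do not say if introns were included in the counting. Members and gene lists were chosen with earlier results of these data known. For each library and class of nuclei the counts of the 27998 genes were added up and divided by the total UMIs of that class to give CPM. With 1 library per genotype, ratios carry exact 95% conditional binomial intervals, levels exact Poisson intervals and shares Clopper-Pearson intervals, all for counting error only. Named genes were the 10 highest and 10 lowest in Ncx1-/-, the 5 highest and 5 lowest in Ncx1+/-, up to 20 higher and 10 lower against the Sema4d set, and members of the lists; not all are printed. Cardiomyocyte nuclei had at most 1 endothelial gene and at least 8 of 12 cardiomyocyte genes. Doublets were not removed: Scrublet's automatic threshold did not work in these libraries, so the top 8% of scores was left out as an alternative. Of the gene IDs, 27722 were found in GENCODE M21, which gave the coordinates. The calling rule was tested on simulated Poisson counts. These hold no variation between hearts or libraries, so that test covers counting error only. Python 3.11.15, scipy 1.17.1, scanpy 1.11.5 and edgeR 4.0.16 (TMM factors only) were used.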

Additional observations from a re-analysis of the deposited data

How the results depend on the processing

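No paired analysis was possible because each genotype was 1 library. The share of members moved with the rule: 5.18%, 5.33% and 9.07% without the top 8% of doublet scores, 5.64%, 5.19% and 8.71% without high-share nuclei, 4.27%, 3.36% and 6.55% with Ebf3 required, 2.07%, 1.72% and 3.39% with 3 set genes, and 2.66%, 3.54% and 4.15% after thinning to 2000 UMIs. Counts of genes standing apart moved by over 1.5 times as follows. With 3 set genes 118 stood higher in Ncx1-/- and 50 in Ncx1+/-. With Ebf3 required 45 stood higher and 69 lower in Ncx1+/-, and with no count minimum 45 and 56. At a fold of 2, 54 stood higher and 40 lower in Ncx1-/-, 3 and 14 in Ncx1+/-, and 8 hypoxia and glycolysis genes higher. After thinning, which leaves fewer counts, 79 stood higher and 92 lower in Ncx1-/-, 16 and 21 in Ncx1+/-. Signs reversed (log2 ratio) for Bnc2 (0.10) and Rspo3 (0.55) without the top doublet scores, Kctd16 (-0.52) without high-share nuclei, Mrrf (-0.38) and Gdap2 (-0.0598) after thinning, Tenm4 in Ncx1+/+ (-0.0786) without the top doublet scores, and, with 3 set genes against other endothelial-type nuclei, Tll1 in Ncx1+/+ (-0.25) and Ncx1+/- (-1.09) and Bmper in Ncx1+/- (-0.0133). The causes were not tested. Of 30 named genotype results, 9 kept their call and direction after thinning, 16 with 3 set genes, 18 without high-share nuclei and 19 without the top doublet scores. Scaling by TMM gave 220 higher and 149 lower genes in Ncx1-/-.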
